A study of Mus musculus with 12 samples.

Results

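*Arrb1* and *Arrb2* code for beta-arrestin 1 and beta-arrestin 2, and both were read on cDNA microarrays of yolk sacs from *Prdm6* del/del embryos at E10.5, set against wild type yolk sacs. All probes that the array's annotation gives to these genes were taken, 1 probe for *Arrb1* (probe 19410) and 1 for *Arrb2* (probe 18088), so 2 of 20794 probes and 2 of 9030 genes with a symbol on the array. *Arrb1* had been chosen by its mean log2 ratio on these same arrays, because the study lists it among its differentially expressed genes, and *Arrb2* was added as its close relative. The mean ratios of both are therefore given as a description with no test. RNA of 6 *Prdm6* -/- yolk sacs was hybridized to 12 arrays with 2 channels each, against 1 pool of RNA from 6 *Prdm6* +/+ yolk sacs. The -/- embryos lack exon 3 of *Prdm6* in all tissues, a deletion brought into the germ line with a Cre deleter line, and their yolk sacs were taken at a stage when such embryos begin to die. On 5 arrays del/del RNA was labelled with Cy5, on 5 others with Cy3, and for replicates 8 and 9 the 2 channels have the same dye in the labels. The labels do not tie arrays to yolk sacs, so the arrays are not 12 independent animals, and the pool gives no spread between wild type yolk sacs.

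Beta-arrestins are cytosolic adaptors of G protein-coupled receptors. Once an active receptor has been phosphorylated by a receptor kinase, a beta-arrestin binds it, stops it from coupling to G proteins, links it to clathrin and the AP-2 adaptor for endocytosis, and can hold kinases such as Src and the MAP kinases near it. Both proteins are made in most tissues and stand in for each other at many receptors: mice that lack only *Arrb1* or only *Arrb2* live, and loss of both is lethal. No sequence of these genes was used here.

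Each value is read as a log2 ratio of del/del over the wild type pool, so that 0 means equal signal. The direction is not stated with the values and was taken from signed ratios that the study lists for single clones. It says nothing of how strongly a gene is expressed, and a smaller share of cells that express a gene cannot be told apart from less RNA per cell. Between 20011 and 20501 probes had a value on each array, with array medians of -0.06 to 0.05. Precision is limited by the number of arrays, since spot intensities were not used here. Whether yolk sac markers were present cannot be read from ratios. Among markers of its cell types, 5 of 6 measured erythroid genes and 2 of 4 macrophage genes were lower past the threshold given below, against 0 of 8 endothelial, 0 of 6 visceral endoderm and 0 of 4 smooth muscle and mesothelium genes, beside 1.32% of all genes tested. The calls of both macrophage genes, *Lyz2* and *Laptm5*, were lost when any of several single arrays was left out, and also when arrays were averaged as presumed pairs (adjusted p = 0.202 and 0.213 from limma).

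*Arrb1* was lower in del/del yolk sacs than in the pool on 12 of 12 arrays. Its log2 ratios were -0.29, -0.40, -0.46, -0.50 and -0.55 on the 5 arrays with del/del in Cy5 (replicates 1, 3, 5, 7 and 11), -0.45, -0.29, -0.74, -0.56 and -0.98 on the 5 with del/del in Cy3 (replicates 2, 4, 6, 10 and 12), and -0.62 and -0.20 on replicates 8 and 9. Replicate 12 had the lowest value and replicate 9 the highest. The mean was -0.50 (SD 0.21, n = 12 arrays), or 1.42-fold lower in del/del, and the median was -0.48. Of the 18157 probes with a value on every array, 158 lay below 0 on all 12, or 0.870%. On single arrays the *Arrb1* probe stood between percentiles 4.86 and 32.4 of all probes (median 13.3), in the lower part of each array and at the extreme end of none. With the 5 arrays of del/del in Cy3 turned in sign, the mean over 10 arrays was 0.0816, so the direction of *Arrb1* rests on reading every array as del/del over wild type. The study also lists *Arrb1* as 1.42-fold lower, which is the mean of the arrays read without turning. The median log2 ratio of the 6 erythroid marker genes was -1.20 and that of the 4 macrophage genes -0.44, and their part in the lower *Arrb1* ratio was not tested.

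*Arrb2* did not share this pattern. Its log2 ratios were 0.01, -0.18, -0.44, -0.20 and -0.53 with del/del in Cy5 (replicates 1, 3, 5, 7 and 11), 0.09, 0.16, 0.07, 0.22 and 0.16 with del/del in Cy3 (replicates 2, 4, 6, 10 and 12), and 0.18 and -0.26 on replicates 8 and 9. The mean was -0.06 (SD 0.26, n = 12), with 5 arrays below 0 and 7 above. The probe stood between percentiles 12.3 and 68.5 of an array (median 56.3). Taken within each array, *Arrb1* minus *Arrb2* was -0.44 on the log2 scale (SD 0.38, n = 12), and below 0 on 11 of 12 arrays. This difference was -0.17 (SD 0.15, n = 5) with del/del in Cy5 and -0.74 (SD 0.27, n = 5) with del/del in Cy3, so its size differed with the orientation of the dyes. With the Cy3 arrays turned in sign, the mean of *Arrb2* over 10 arrays was -0.20 and the difference between the genes was 0.29 (SD 0.52), so the order of the genes also rests on the direction of the ratios.

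**Figure D1:**
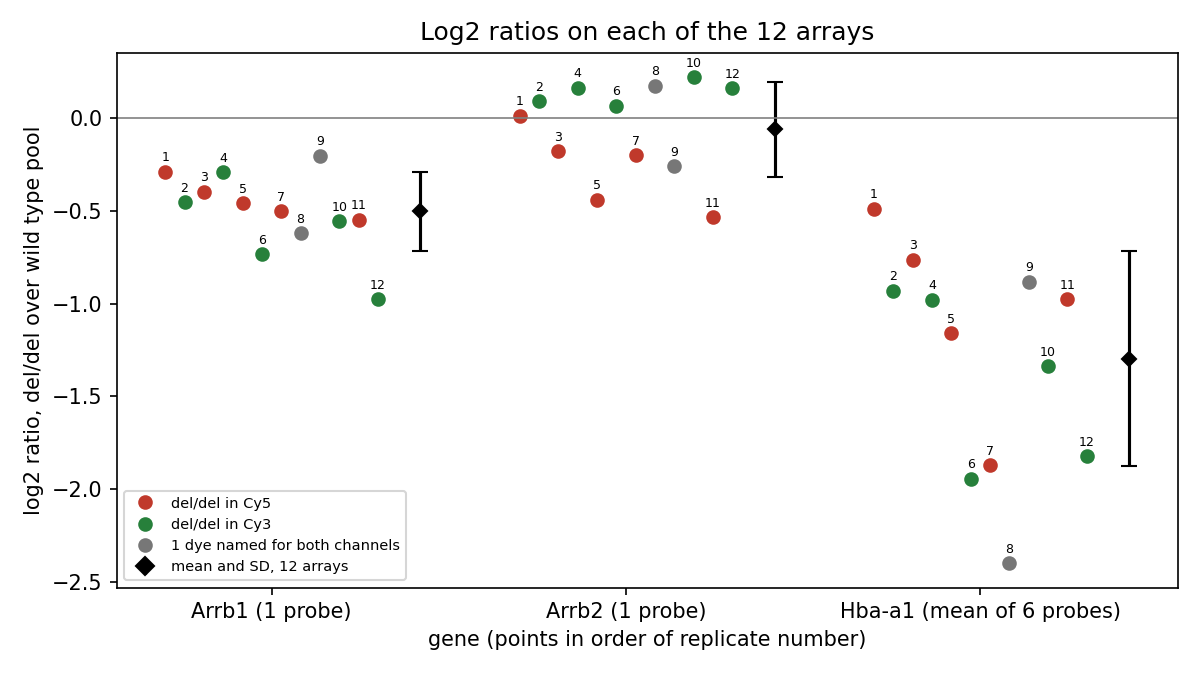
Log2 ratio of del/del over the wild type pool (vertical axis) for *Arrb1*, *Arrb2* and the mean of 6 *Hba-a1* probes, 1 point per array with its replicate number, coloured by the dye of the del/del channel, and a diamond with bars for the mean and SD of 12 arrays. All 12 points of *Arrb1* lie below 0, between -0.98 and -0.20, while those of *Arrb2* lie on both sides of 0, with all 5 of the Cy3 arrays above it.

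The dye orientation does not enter the mean that *Arrb1* was chosen by, and it was tested as the dye term of the same model. It is not independent of that choice, because the study selected genes with reproducible change over arrays with swapped dyes. A small dye difference of *Arrb1* is favoured by such a choice, and *Arrb2* was not chosen in that way. The mean of *Arrb1* was -0.44 (SD 0.10, n = 5) with del/del in Cy5 and -0.60 (SD 0.26, n = 5) with del/del in Cy3, and the ranges overlapped. The difference, Cy5 minus Cy3, was 0.16 (SE 0.15, adjusted p = 0.469 from limma). For *Arrb2* the means were -0.27 (SD 0.22, n = 5) and 0.14 (SD 0.06, n = 5), and the highest Cy5 array, 0.01, lay below the lowest Cy3 array, 0.07. Of 18352 probes with a value on all 10 of these arrays, 7.42% were separated in the same way. The difference for *Arrb2* was -0.41 (SE 0.13, adjusted p = 0.0612 from limma), and did not pass 0.05, while 5.1% of all probes tested passed in this direction. When replicates 8 and 9 were given the dye of their del/del channel, the difference was -0.41 (SE 0.11) and passed (adjusted p = 0.0163 from limma). *Arrb2* lay below 0 on 4 of 5 Cy5 arrays and above 0 on 5 of 5 Cy3 arrays, whereas *Arrb1* lay below 0 on all 10.

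Replicate numbers that follow each other (1 and 2, 3 and 4, and so on) have opposite dyes once replicates 8 and 9 are given the dye of their del/del channel, and the study describes 1 pair of arrays with swapped dyes for each yolk sac. With such arrays averaged as presumed pairs, *Arrb1* had log2 ratios of -0.37, -0.34, -0.60, -0.56, -0.38 and -0.76, and *Arrb2* had 0.05, -0.01, -0.19, -0.01, -0.02 and -0.19. The SD between the 6 pairs was 0.17 for *Arrb1* and 0.10 for *Arrb2*. Every presumed pair was lower for *Arrb1* than the lowest pair of *Arrb2*. The pairs of replicates 5 and 6 and of replicates 11 and 12 held the lowest values of both genes.

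Across the array, probes measured on 8 arrays or more were tested with limma. The threshold was an adjusted p (Benjamini-Hochberg) below 0.05 together with a change of more than 1.3-fold. The p-values are too small, since the 12 arrays come from 6 yolk sacs. Of 20516 probes tested, 0.907% passed as lower and 0.166% as higher in del/del. Of the 2 beta-arrestin probes, that of *Arrb1* was past the threshold as lower and that of *Arrb2* was not. This contrast is the one *Arrb1* was chosen on, so nothing is read from that count. With the robust and trend options of limma 0 probes passed, that of *Arrb1* included. The trend there is fitted on the mean log2 ratio of a probe, the value under test, and not on signal strength. Calls are therefore not judged by these options. Both options were run only together, so which of them removed the calls was not tested. Among the 186 probes lower past the threshold, ordered from the lowest mean, *Arrb1* stood at place 144.

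*Hba-a1*, which codes for an alpha chain of hemoglobin and is read by 6 probes, gave the profile of red cell RNA to which *Arrb1* was compared. The mean of its 6 probes had log2 ratios of -0.49, -0.76, -1.16, -1.87 and -0.98 with del/del in Cy5 (replicates 1, 3, 5, 7 and 11), -0.93, -0.98, -1.95, -1.34 and -1.82 with del/del in Cy3 (replicates 2, 4, 6, 10 and 12), and -2.40 and -0.88 on replicates 8 and 9. The 12-array mean of this profile was -1.297 (SD 0.58), and that of *Arrb1* was 38.7% of it on the log2 scale. This share too rests on the direction, since with the Cy3 arrays turned in sign the mean of the profile over 10 arrays was 0.18 (SD 1.38). The *Hba-a1* profile lay below *Arrb1* on 12 of 12 arrays. Its single probes averaged between -1.48 and -0.91, and probe 19752 among them also had a dye difference, of 1.32 (SE 0.40, adjusted p = 0.0490 from limma).

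With the mean and dye term subtracted, *Arrb1* followed the *Hba-a1* profile over the 12 arrays taken singly. Its call was lost over presumed pairs, as given below. Pearson's r was 0.68 (permutation p = 0.0145, adjusted p = 0.0290 over the 2 genes compared) and Spearman's rho was 0.76 (permutation p = 0.00537, adjusted p = 0.0107), both two-sided. Replicates 1, 2, 3, 4, 9 and 10 were above 0 in both deviations and replicates 5, 6, 7, 8 and 12 below 0 in both, which leaves replicate 11. Without replicates 7 and 8, which lay farthest from the *Hba-a1* median, r was 0.84. Against the 6 *Hba-a1* probes singly, r of *Arrb1* ranged between 0.41 and 0.76. *Arrb2* had r of -0.19 (permutation p = 0.547, adjusted p = 0.547) and rho of -0.01 (permutation p = 0.991, adjusted p = 0.991), and without replicates 7 and 8 its r was 0.34. With replicates 8 and 9 given the dye of their del/del channel, r of *Arrb2* was 0.16 (permutation p = 0.626). The sign of its r thus depended on how these arrays were coded. The difference between the correlations of the 2 genes was not tested.

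**Figure D2:**
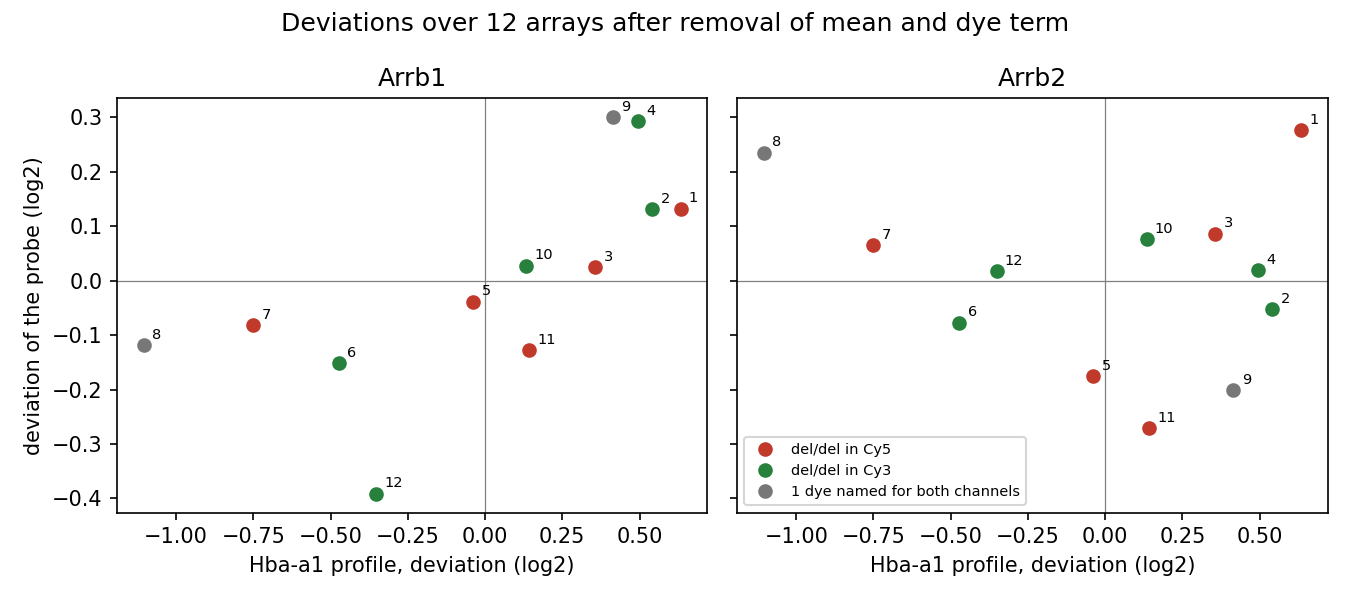
Deviation of the *Arrb1* probe (left) and the *Arrb2* probe (right) from its own mean and dye term (vertical axis, log2) against the same deviation of the *Hba-a1* profile (horizontal axis, log2), 1 point per array with its replicate number. For *Arrb1* 11 of 12 arrays lie in the lower left or upper right part (r = 0.68). For *Arrb2* the points show no such order (r = -0.19, and 0.16 with replicates 8 and 9 given the dye of their del/del channel).

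The p-values of this correlation treat 12 arrays as independent, which they are not, since they come from 6 yolk sacs. Over the 6 presumed pairs, r of *Arrb1* with the *Hba-a1* profile was 0.63 (exact permutation p = 0.203) and rho 0.71 (exact permutation p = 0.136), so the call was lost with 6 points. For *Arrb2* over the same pairs, r was 0.38 (exact permutation p = 0.454) and rho 0.60 (exact permutation p = 0.242). The genes thus lay closer to each other over presumed pairs than over single arrays. Within the 6 arrays whose del/del channel is labelled Cy5, r of *Arrb1* was 0.57 (exact permutation p = 0.242), and within the 6 labelled Cy3 it was 0.65 (exact permutation p = 0.157). With arrays brought to the same spread, r was 0.60 (permutation p = 0.0363). As a description of the array, 2.46% of the 18149 other probes with a value on every array had an r with the *Hba-a1* profile at or above that of *Arrb1*, and the median r of all of them was -0.05. Among the 180 other probes lower past the threshold, without those of *Hba-a1*, 27.8% reached it, and their median r was 0.39.

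The probes whose deviations were most like those of *Arrb1* were not those with a similar mean. Among 11453 probes with a symbol and a value on every array, the highest r were 0.957 for *Rpl38*, 0.956 for *Rpl22*, 0.955 for *Emc8*, 0.954 for *Tcf7l1*, 0.947 for *Rhebl1* and 0.945 for *Pmepa1*, each over 12 arrays. *Rpl38* and *Rpl22* code for proteins of the large ribosomal subunit, *Emc8* for a subunit of the ER membrane protein complex, and *Tcf7l1* for a transcription factor of the Wnt pathway. The mean log2 ratios of the 6 lay between -0.11 and 0.09, and 0 of the 6 passed the threshold. Their r with the *Hba-a1* profile lay between 0.57 for *Pmepa1* and 0.72 for *Tcf7l1*, around the 0.68 of *Arrb1*. Probes with little change in their mean thus followed that profile too. These are the highest of many values over few arrays, and the points share the arrays with their spread. With arrays brought to the same spread, the r of these 6 with *Arrb1* lay between 0.81 and 0.86.

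Among the 154 probes with a symbol past the threshold, the highest r with *Arrb1* were 0.86 for *Nrp2*, 0.86 for *Cdc6*, 0.82 for *Mbnl1*, 0.80 for *Csf2rb2*, 0.80 for *Qrich1* and 0.77 for *Nudt4*. *Nrp2*, a receptor for semaphorins and VEGF, was higher in del/del, with a mean log2 ratio of 0.49 (SD 0.41, n = 12), so its deviations went with those of *Arrb1* around a mean of the opposite sign. *Cdc6*, which loads the replicative helicase, and the RNA-binding protein gene *Mbnl1* had means of -0.41 (SD 0.28) and -0.51 (SD 0.48), the closest to the -0.50 of *Arrb1*. *Csf2rb2*, a cytokine receptor chain gene of blood cells, had -0.75, *Nudt4* had -0.70 and *Qrich1* had -1.10. With arrays brought to the same spread, the r with *Arrb1* was 0.61 for *Nrp2*, 0.64 for *Nudt4* and 0.65 for *Qrich1*, and lay between 0.75 and 0.85 for the other 3. The r of these 6 with the *Hba-a1* profile ranged between 0.29 for *Csf2rb2* and 0.90 for *Nudt4*.

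Genes that act with beta-arrestins were compared in 8 lists of 168 genes, of which 100 were measured by 163 probes. Of these, 1 fell and 0 rose in limma, beside 1.32% of all 8956 genes tested that fell and 0.335% that rose, where a gene counts if at least 1 of its probes passed. With no adjustment of p, at the same limits, 2 of the 100 genes were found. That count has no array-wide share at these limits beside it, so nothing is read from it. The median log2 ratio over the 100 genes, each taken as the median of its probes, was 0.02. Over all probes tested, taken singly and not by gene, the median was -0.00367.

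In the wider arrestin family 3 of 8 genes were measured and 0 passed. *Sag*, the arrestin of rod photoreceptors, had a log2 ratio of -0.05 (SD 0.25, n = 12, adjusted p = 0.860 from limma). The alpha-arrestin genes *Arrdc1* and *Arrdc4* had -0.04 and 0.05. Of 6 receptor kinases, which mark active receptors for arrestin binding, *Grk3*, *Grk4* and *Grk6* were measured, with -0.03, -0.28 and 0.09. The lowest adjusted p among them was that of *Grk4* (SD 0.50, n = 12, adjusted p = 0.486 from limma).

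Of 36 receptors that recruit beta-arrestins, 14 were measured and 0 passed, and their medians lay between -0.20 and 0.21. *Ednrb*, the endothelin B receptor, had 0.22 by probe 20135 (SD 0.56, n = 12, adjusted p = 0.463 from limma) and -0.01 by its other probe. The endocytosis list held 17 measured genes of 21, with medians between -0.03 and 0.18, and 0 passed. *Clta*, a clathrin light chain, came closest, with 0.30 by probe 19876 (SD 0.26, higher on 11 of 12 arrays, adjusted p = 0.108 from limma) and -0.24 by its other probe. The clathrin heavy chain gene *Cltc* had -0.04 and -0.02 by its probes, and *Ap2b1*, the AP-2 subunit that binds beta-arrestins, had 0.07 and 0.02. Of the ubiquitin enzymes that act on arrestins, 4 of 8 were measured, with medians between 0.02 and 0.06, and *Usp20*, a deubiquitinase, had the lowest adjusted p (log2 ratio 0.07, SD 0.24, adjusted p = 0.616 from limma).

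Of 42 kinases and other signalling genes that arrestins can scaffold, 31 were measured and 0 passed. *Axin1*, a scaffold of the Wnt pathway, had 0.17 (SD 0.15, above 0 on 11 of 12 arrays, adjusted p = 0.245 from limma), the lowest adjusted p of the list. The lowest means in this list were -1.19 for the kinase gene *Mapk8*, whose probe had a value on 8 arrays (SD 6.51, adjusted p = 0.869 from limma), and -0.62 for the cofilin gene *Cfl1* (SD 1.07, n = 12, adjusted p = 0.470 from limma). Of 25 G protein subunits, 17 were measured, with medians between -0.20 and 0.17. *Gng10*, a gamma subunit, had -0.26 by probe 20572 (SD 0.34, n = 12, adjusted p = 0.274 from limma) and -0.13 by its other probe.

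The gene that fell was *Rgs9*, of the family of 22 RGS genes, whose proteins speed up the hydrolysis of GTP by G protein alpha subunits and so end their signal. Of the 22, 11 were measured. Probe 4857 of *Rgs9* had a log2 ratio of -0.67 (SD 0.46, below 0 on 12 of 12 arrays, adjusted p = 0.00853 from limma), while its other probe had 0.26 and did not pass (adjusted p = 0.303). *Rgs4* had 0.49 (adjusted p = 0.290 from limma) and did not pass. The deviations of the lower *Rgs9* probe had an r of -0.25 with the *Hba-a1* profile. The median of the 11 RGS genes was -0.14.

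**Figure D3:**
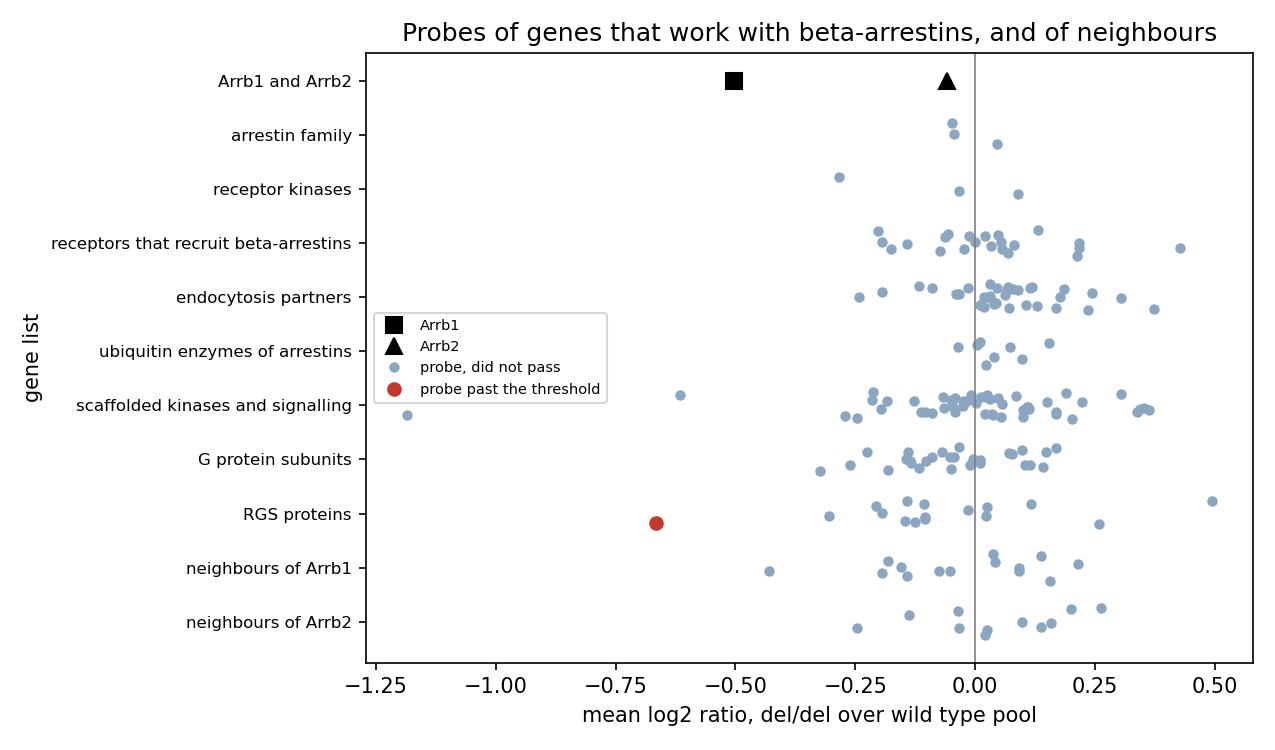
Mean log2 ratio of del/del over the wild type pool (horizontal axis) for *Arrb1* (square), *Arrb2* (triangle) and each probe of the gene lists (rows, 1 dot per probe, red where past the threshold). In the 8 lists of beta-arrestin partners, 1 dot is red, that of *Rgs9* at -0.67, and most dots lie around 0.

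*Arrb1* lies on mouse chromosome 7 and *Arrb2* on chromosome 11. The 5 nearest genes with a probe on each side of *Arrb1* had a median log2 ratio of -0.06, between -0.19 and 0.22. In limma 0 of 10 passed, beside 1.32% of all genes tested that passed as lower and 0.335% as higher. With 10 genes, nothing is read from that 0. *Slco2b1*, an organic anion transporter gene, had the lowest adjusted p, with -0.43 by probe 2231 (SD 0.38, below 0 on 10 of 12 arrays, adjusted p = 0.0952 from limma) and 0.09 by its other probe. With no adjustment of p, at the same limits, 1 of these 10 was found. The 10 neighbours of *Arrb2* had a median of 0.02, between -0.25 and 0.21. Beside the same shares of all genes, 0 of them passed, from which nothing is read either, with 0 also when p was not adjusted. The unadjusted counts of both sets of neighbours have no array-wide share beside them, so nothing is read from them. *Alox12*, an arachidonate lipoxygenase gene, had the lowest adjusted p among them (log2 ratio -0.25, SD 0.29, n = 11, adjusted p = 0.215 from limma). *Mir326* is annotated inside *Arrb1* and had 0 probes on the array.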

How the data were processed

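The values deposited by the authors are log2 ratios, 1 for each probe on each array, and were normalized before deposit. Image analysis, background correction and the method of normalization are not given in the sources used here. Neither scale nor direction is stated with the values. Both were taken from the signed ratios that the study lists for single clones, as the log2 ratio, del/del to wild type, on every array. Values beyond 8 in size were above 0 on each array whose del/del channel is labelled Cy5 and below 0 on each labelled Cy3. The sample labels give total RNA labelled indirectly, and the paper's methods give amplified RNA.

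The values were used as deposited. Gene symbols of 12771 probes were those of the array annotation, brought up to date by gene ID with a table of GRCm38.p6 genes. For 20516 probes measured on 8 or more of 12 arrays the mean was tested against 0 in limma 3.58.1 (R 4.3.3; lmFit, eBayes), the dye of del/del being a covariate (0 for replicates 8 and 9), with Benjamini-Hochberg adjustment over all of them. Arrays entered singly, so p-values are too small. The fit was tested on simulated data. Correlations used deviations from this mean and dye term, with 100000 resamples over 12 arrays (SciPy 1.17.1 for adjustment) and exact enumeration over 6.

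The members and lists were chosen with earlier results of these data known. Named genes are, per list, at most 3 past the threshold by smallest adjusted p, otherwise the 1 with the smallest, and the 6 probes most like *Arrb1* over all probes and among those past the threshold. *Mapk8*, *Cfl1*, *Rgs4*, *Cltc*, *Ap2b1*, *Arrdc1*, *Arrdc4*, *Grk3* and *Grk6* were named after their values were seen. Alternatives were no dye term, dyes for replicates 8 and 9, the 10 other arrays, centring, scaling, arrays turned by dye, consecutive arrays averaged, extreme values as missing, all 12 arrays, robust and trend options, no fold threshold and leaving out each array. No sequence of *Arrb1* or *Arrb2* was used.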

Additional observations from a re-analysis of the deposited data

How the results depend on the processing

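No paired analysis was possible because the labels hold 1 group, with no second group to pair it with. The presumed dye-swap pairs of arrays rest on replicate numbers, since the labels do not tie arrays to yolk sacs. The mean log2 ratio of *Arrb1* moved by less than its SD under 19 of 20 alternatives and was -0.53 to -0.46 without each array. With the arrays of del/del in Cy3 turned in sign, it was 0.0816, and the means of *Slc4a1*, *Laptm5* and *Lyz2* turned to 0.15, 0.29 and 0.0611. The mean of *Arrb2* moved by less than its SD under all 20, with the farthest value, -0.20, on the turned arrays, and lay between -0.09 and -0.03 without each array. For both genes these counts are a weak check. Leaving out a single array cannot move a mean by its SD, and dropping the dye term or averaging pairs leaves it unchanged. The dye difference of *Arrb2* passed (-0.41) with dyes given to replicates 8 and 9, and lay between -0.48 and -0.34 without each array. That of *Arrb1*, between 0.07 and 0.23 without each array, passed under 0 of 17.

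The correlation of *Arrb1* with the *Hba-a1* profile lay between 0.64 and 0.74 without each array. Its call was lost over presumed pairs (r 0.63, rho 0.71) and within the 6 arrays of a single del/del dye (0.57 in Cy5, 0.65 in Cy3), alternatives with fewer points. For *Arrb2* it lay between -0.53 and 0.12 without each array (0.12 without replicate 8), and was 0.16 with dyes given to replicates 8 and 9, 0.23 on the 10 other arrays, 0.38 (rho 0.60) over presumed pairs, 0.34 without replicates 7 and 8, and 0.27 within the Cy5 arrays, with 0 of these passing. The single-dye correlations, rho over presumed pairs and a profile without the *Hba-a1* probe with a dye difference were added after the data were seen.

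Probes past the threshold numbered 186 lower and 34 higher, against 103 and 10 with presumed pairs averaged, 499 and 1022 with arrays turned, and 0 and 0 with the robust and trend options, where *Arrb1* also lost its call. Nothing is read from the results of the robust and trend options, since the trend there is fitted on the mean log2 ratio itself. Higher probes numbered 22 with no dye term, 21 on the 10 other arrays and 52 with no fold threshold. Without each array, between 146 and 184 were lower and between 18 and 35 higher (21, 19, 18 and 20 without replicates 1, 6, 7 and 10). The 1 lower and 0 higher genes of the beta-arrestin lists were 2 and 8 with arrays turned, and 0 lower with the robust and trend options. The causes were not tested.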
